A study of Mus musculus with 54 samples.

Results

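The transcripts described here are the transforming growth factor-beta (TGF-beta) ligands Tgfb1, Tgfb2, and Tgfb3, the related ligand myostatin (Mstn), the receptors Tgfbr1, Tgfbr2, and Tgfbr3, and the Smads Smad2, Smad3, and Smad7. They were chosen by name and matched through the NCBI gene numbers in the tables. In total, these are 10 of the 17855 genes with an NCBI gene number that appear in at least 1 table, and all 10 are listed in all 27 tables.

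RNA was sequenced from H2K mouse myogenic progenitors, conditionally immortalized muscle precursors that fuse into myotubes when serum is lowered. The 6 lines were wildtype, EMD-/y (emerin-null, with no working copy of the X-linked gene of the nuclear envelope protein emerin), and EMD-/y cells transduced with lentivirus carrying wildtype emerin (+EMD) or the emerin mutants S54F, Δ95–99, or Q133H, whose human counterparts are found in Emery-Dreifuss muscular dystrophy. Each line was sampled at T=0, 24, and 48 h of differentiation, called days 0, 1, and 2, with 3 labelled replicates in each of 18 groups and 54 samples in all. The tables give the authors' mean of normalized counts per group, 15 tables for a line against wildtype on the same day and 12 for consecutive days of a line.

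All groups grew with gamma-interferon before the switch to horse serum. The transduced lines were puromycin-selected derivatives of the EMD-/y line, with doses that differed between lines, and the labels state that puromycin stayed in the medium of the mutant lines. The methods also give a higher plating density for the mutant lines than for wildtype and EMD-/y cells. These conditions cannot be told apart from the emerin genotype, and a vector-only line was not analysed here. No values per sample were used, so no SD or test accompanies a value. Every difference below is a description of the authors' means, and whether it exceeds the spread between replicates was not tested.

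TGF-beta ligands are secreted in a latent complex and, once freed, bind the type II receptor Tgfbr2, which activates the type I receptor Tgfbr1. The activated receptor phosphorylates Smad2 and Smad3, which enter the nucleus with Smad4 and regulate transcription, and Smad7 is induced in return and blocks the receptor. Tgfbr3 (betaglycan) presents ligand, Tgfb2 above all, to the signalling receptors. Myostatin uses activin type II receptors and the same Smads, and is known as a muscle-made inhibitor of muscle growth. TGF-beta is known to inhibit myoblast differentiation in culture.

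The wildtype groups had Emd means between 987 and 1962, whereas no group of another line exceeded 3.52. The +EMD groups are among the latter, so the means of the mouse gene do not check the introduced emerin. Of 18 myogenic markers, between 16 and 18 had a mean of at least 10 in every group, and Myod1, the muscle determination factor, had a level of at least 6019.6 normalized counts. Of 9 fibroblast markers, between 4 and 6 were at a level of at least 10 in each group. Levels ran from 7407 to 27182 for Col3a1, from 576 to 19578 for Col1a1, and from 303 to 4665 for Ly6a. They ran from 11.0 to 68.2 for Pdgfra and from 2.86 to 56.1 for Dcn. Thy1 and Dpt reached at most 15.7 and 15.4, Lum stayed at or below 0.469, and Tcf21 had no level in any group. Col3a1 and Col1a1 had the highest median levels of the list (17652 and 3021). Of 8 immune and endothelial markers, 1 or 2 were at a level of at least 10 in each group. Cd68 reached up to 109 and Kdr 25.8, and Ptprc stayed at or below 1.89. The summed level of the fibroblast markers was lowest in Q133H at day 1 (8765) and highest in EMD-/y at day 1 (45004), and that of the immune and endothelial markers was between 25.4 (+EMD, day 0) and 135 (Q133H, day 2). The part of these cell type markers in the values below was not tested. All means of a group added up to 16.7 M at the lowest and 21.1 M at the highest over the tables. Each group appears in several tables that were normalized separately. Levels over the 18 groups were therefore put on a common scale with 1 offset per table. After this step, the means of the same group differed between tables by at most 1.15-fold for 9 of the 10 genes, and by up to 2.22-fold for Mstn.

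Mstn lies at chr1:53061640-53068079 and Tgfb2 at chr1:186622787-186709697 of GRCm38.p6, the mouse build (mm10) to which the reads were mapped. The 250 bases upstream of the transcript start that the RefSeq promoter table gives are shown for both genes, since among the ligand genes with an entry they were farthest below wildtype on day 1 in Q133H, and both have a promoter sequence in that table. For Mstn this start is the first base of the gene, whereas for Tgfb2 it is base 186705989, which lies 3708 bases inside the gene's span from its 5′ end. Capitals mark E-boxes (CANNTG, searched on both strands), a general motif of which Myod1 and myogenin bind some forms. The strand printed is the gene's own, 5′ to 3′, from chr1:53061390-53061639 (plus strand) and chr1:186705990-186706239 (minus strand).
Mstn: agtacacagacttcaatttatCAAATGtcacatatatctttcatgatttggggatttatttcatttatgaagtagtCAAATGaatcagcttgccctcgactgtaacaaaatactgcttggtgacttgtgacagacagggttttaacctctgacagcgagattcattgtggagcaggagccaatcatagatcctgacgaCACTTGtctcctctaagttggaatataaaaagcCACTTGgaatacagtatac
Tgfb2: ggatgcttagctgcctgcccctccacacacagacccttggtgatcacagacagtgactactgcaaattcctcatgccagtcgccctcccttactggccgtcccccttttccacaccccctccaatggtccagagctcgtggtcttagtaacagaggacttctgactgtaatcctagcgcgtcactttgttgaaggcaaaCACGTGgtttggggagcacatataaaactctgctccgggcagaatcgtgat

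The Mstn window holds 4 E-boxes, the nearest 19 bases before the gene's first base, and the Tgfb2 window holds 1, 51 bases before the transcript start at base 186705989. Of 32851 such windows in the table, 66.2% hold at least 1 E-box. Both windows also contain TATAAA, which 12.4% of windows hold, and CAGACA, a sequence of the kind bound by Smad3, which 17.1% hold. These matches describe the letters and are not binding sites shown by these data. The other ligand genes lie at chr7:25687002-25705077 (Tgfb1) and chr12:86056743-86079041 (Tgfb3). The receptor genes lie at chr4:47353222-47414926 (Tgfbr1), chr9:116087695-116175363 (Tgfbr2), and chr5:107106567-107289629 (Tgfbr3), and the Smad genes at chr18:76241090-76311748 (Smad2), chr9:63646766-63757994 (Smad3), and chr18:75367365-75395935 (Smad7).

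A gene was counted when the 2 means of a table were at least 2-fold apart and the higher one was at least 10. All 10 genes met this minimum in every table. In total, 29 of 150 values against wildtype and 39 of 120 values between days were at least 2-fold apart. Tgfb2, Tgfb3, Mstn, and Tgfbr3 made up 26 of the former and 35 of the latter. The other 6 genes kept within 2-fold of wildtype except for Tgfbr1 in +EMD on days 0 and 1 and Smad7 in Q133H on day 2.

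At day 0, 0 of the 10 genes were counted in EMD-/y (7.87% of all genes at this minimum), 5 in +EMD (15.7%), 0 in S54F (10.3%), 1 in Δ95–99 (10.7%), and 1 in Q133H (12.9%). At day 1, the counts were 1 in EMD-/y (6.43%), 3 in +EMD (18.1%), 1 in S54F (10.4%), 4 in Δ95–99 (19.2%), and 4 in Q133H (22.5%). At day 2, they were 0 in EMD-/y (6.73%), 2 in +EMD (17.5%), 1 in S54F (9.90%), 2 in Δ95–99 (21.4%), and 4 in Q133H (32.7%). Over the 5 lines, the 10 genes were past 2-fold in 14% of values at day 0, 26% at day 1, and 18% at day 2, beside 11.5%, 15.3%, and 17.7% of all genes. The share was thus near the background at days 0 and 2.

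Between days 0 and 1, 4 of the 10 genes were counted in wildtype (21.9% of all genes), 4 in EMD-/y (20.1%), 5 in +EMD (16.2%), 4 in S54F (15.3%), 3 in Δ95–99 (12.7%), and 2 in Q133H (11.2%). Between days 1 and 2, the counts were 2 in wildtype (19.2%), 2 in EMD-/y (17.8%), 3 in +EMD (20.6%), 4 in S54F (20.6%), 3 in Δ95–99 (14.1%), and 3 in Q133H (11.0%). The median size of the log2 ratio over the 10 genes was between 0.22 and 1.06 from day 0 to day 1 and between 0.22 and 0.58 from day 1 to day 2. Over all genes it was between 0.30 and 0.46 and between 0.30 and 0.45.

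**Figure D1:**
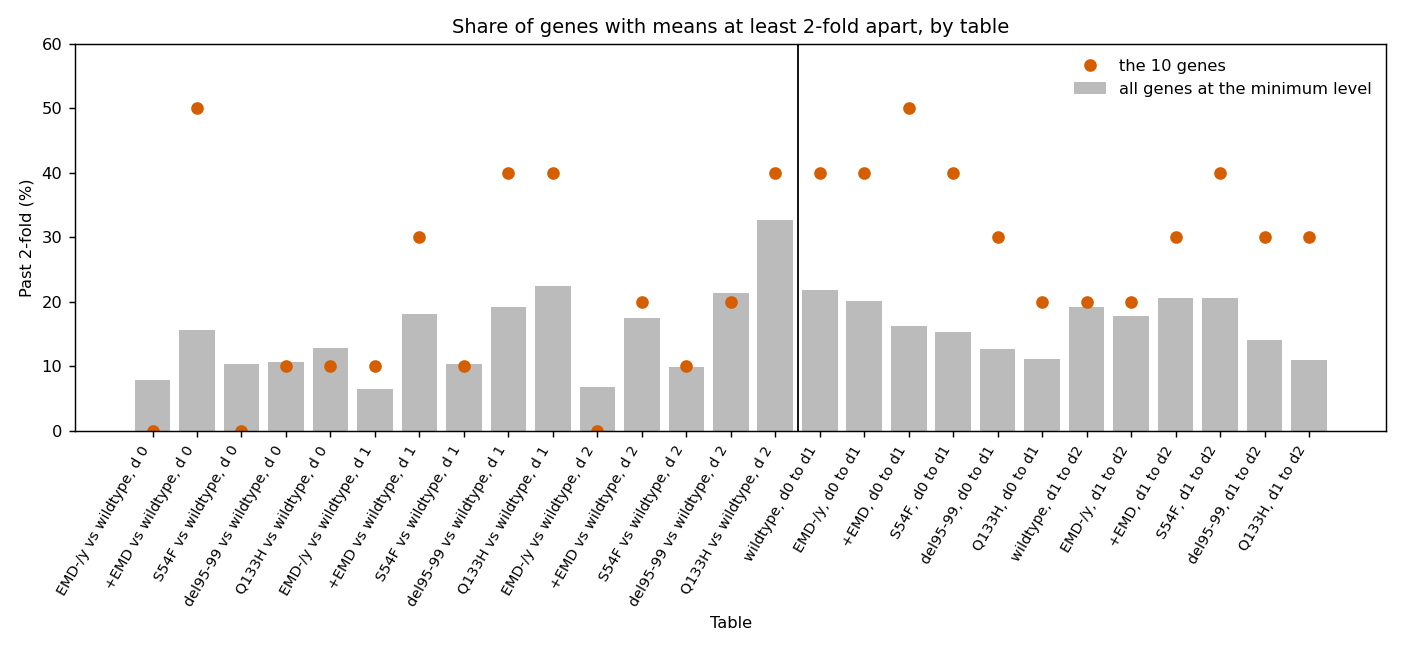
Percent of genes whose means were at least 2-fold apart in each of the 27 tables (vertical axis), with bars for all genes at the minimum level and points for the 10 genes. Left of the line are the 15 tables against wildtype (vs), right of it the 12 between days (d, day); the points reach 50% in +EMD at day 0 and in +EMD from day 0 to day 1, and lie at 0 in 3 tables.

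Tgfb3, the ligand with the highest level in differentiated cells, was higher at each later day in wildtype progenitors. Its wildtype mean was 1330 at day 0 and 6581 at day 1 in the table of these days, a log2 ratio of 2.31. The wildtype mean was 6149 at day 1 and 9702 at day 2 in the table of those days (log2 ratio 0.66). EMD-/y cells had 2084 at day 0 and 6273 at day 1, a log2 ratio of 1.59. In contrast, Tgfb3 in Q133H cells was 1303 at day 0 and 1200 at day 1, and in Δ95–99 cells 1476 and 2054. The day 1 mean was 1.42 above day 0 on the log2 scale in +EMD and 1.54 in S54F.

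The lines were farthest apart on day 1. Against a wildtype mean of 6971, Q133H had 1152 (log2 ratio -2.60). Against 6954, Δ95–99 had 1987 (-1.81), and against 6773, +EMD had 1808 (-1.91). S54F had 3666 against 6791 (-0.89). EMD-/y had 6402 against 6473 (-0.02), so the parent of the transduced lines was level with wildtype while its 4 derivatives were lower. Of all genes in the Q133H table, 7.03% lay at least as far from wildtype as Tgfb3 did.

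From day 1 to day 2, Tgfb3 was higher by 2.17 on the log2 scale in +EMD, 1.84 in Q133H, 1.80 in Δ95–99, and 1.24 in S54F, against 0.66 in wildtype and EMD-/y. At day 2, Q133H still had a mean of 4025 beside 10141 in wildtype (log2 ratio -1.33). The other 4 lines were between 0.65 below wildtype (Δ95–99) and 0.01 below it (EMD-/y) on this scale. The later step thus made up most of the day 1 difference in +EMD, S54F, and Δ95–99.

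Myogenic markers differed from wildtype in the same tables. On day 1, 16 of 17 markers at the minimum level were at least 2-fold lower in Q133H (median log2 ratio -4.02) and 1 was higher. In Δ95–99, 13 of 17 were lower and 2 higher (-2.06), in +EMD 8 lower and 2 higher (-0.49), and in S54F 1 lower and 2 higher (-0.25). In EMD-/y no marker was lower and 4 of 18 were higher (0.20). The summed level of the 18 markers on day 1 was 332945 in wildtype, 387733 in EMD-/y, 273208 in S54F, 183152 in +EMD, 67911 in Δ95–99, and 38146 in Q133H. The part of this shift in the ligand values was not tested, and fewer differentiated cells and less RNA per cell cannot be told apart in these bulk samples.

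Tgfb2, the ligand that depends most on betaglycan, had a day 1 trough in the 4 transduced lines. In wildtype, its level on the common scale was 514, 717, and 1022 at days 0, 1, and 2. In EMD-/y it was 988, 1058, and 1274. The level in +EMD was 1145, 424, and 1077, and in S54F 878, 440, and 884. In Δ95–99 it was 559, 172, and 735, and in Q133H 334, 100.2, and 385. The wildtype and EMD-/y levels were ordered by day, whereas each transduced line was lowest on day 1.

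Within the tables of days 0 and 1, the log2 ratio of Tgfb2 was -1.39 in +EMD, -0.97 in S54F, -1.68 in Δ95–99, and -1.65 in Q133H, against 0.48 in wildtype and 0.08 in EMD-/y. A ratio of at least this size was held by 3.59% of all genes in the Q133H table. From day 1 to day 2, the mean was higher by 1.36, 1.02, 2.09, and 1.96 in the same 4 lines, and by 0.50 in wildtype and 0.24 in EMD-/y. Relative to wildtype, Tgfb2 on day 1 was 102 beside 755 in Q133H (log2 ratio -2.88) and 181 beside 754 in Δ95–99 (-2.06). On day 0 the order differed. Tgfb2 was higher than wildtype in +EMD (1169 beside 527), EMD-/y (1007 beside 540), and S54F (893 beside 528), and lower in Q133H (355 beside 524).

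Tgfb1, the best known ligand of the family, lay within 2-fold of wildtype in all 15 tables, with log2 ratios from -0.67 (+EMD, day 2) to 0.47 (S54F, day 0). On day 1, its mean was 1005 in Q133H beside 985 in wildtype, in the table where Tgfb2 and Tgfb3 were several-fold lower. From day 0 to day 1, Tgfb1 was lower in all 6 lines, by 0.42 (+EMD) to 0.94 (EMD-/y) on the log2 scale. Its wildtype mean was 1516 at day 0 and 933 at day 1.

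The ligand with the largest share differed by day. Per length of transcript, Tgfb1 made up 58.6% of the summed level of the 3 ligands in wildtype at day 0, and Tgfb3 32.9%. At day 1, the shares in wildtype were 17.0% and 77.4%, and at day 2 11.6% and 83.0%. On day 1, the lowest Tgfb3 share was that of Q133H, at 41.6%, followed by +EMD with 47.5%, Δ95–99 with 54.2%, S54F with 62.5%, and EMD-/y with 76.2%. In Q133H, Tgfb1 was thus still the larger share on day 1, at 55.9%. At day 2, Tgfb3 made up between 74.3% (Q133H) and 83.4% (EMD-/y) in the 6 lines. The sum of the 3 levels per kb in wildtype was 1180 at day 0 and 3715 at day 2, whereas in Q133H it was 1155 at day 0, 786 at day 1, and 1626 at day 2.

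**Figure D2:**
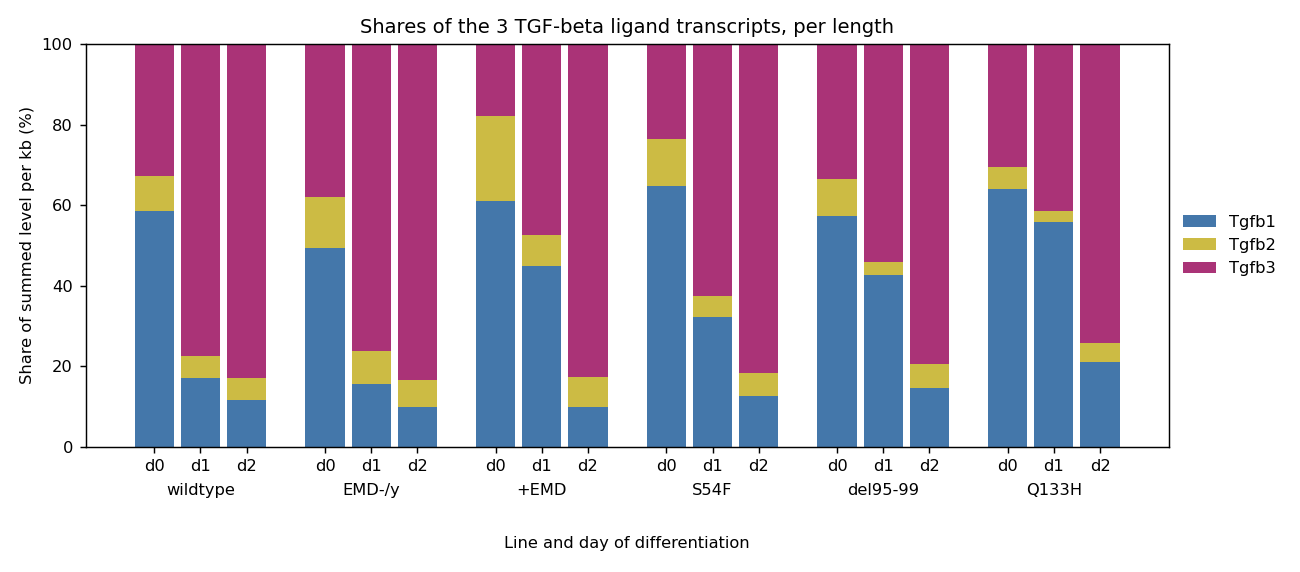
Share of Tgfb1, Tgfb2, and Tgfb3 in their summed level per kb (vertical axis, percent) for each line and day (d0 to d2, horizontal axis; del95-99 stands for Δ95–99). Tgfb3 takes 77.4% in wildtype at day 1 but 41.6% in Q133H, and at least 74.3% in every line at day 2.

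Mstn had the widest range of the 10 genes, from a level of 3.0 in +EMD at day 0 to 1079 in +EMD at day 2. Its wildtype mean was 13.4 at day 0 and 51.4 at day 1 (log2 ratio 1.95), and 50.1 at day 1 and 234 at day 2 (2.23). At day 0, +EMD had 2.92 beside 11.7 in wildtype and Δ95–99 had 3.40 beside 11.9, with log2 ratios of -2.01 and -1.81. EMD-/y had 26.0 beside 14.4 (0.85). The +EMD and Δ95–99 means are below the minimum level of 10, and the wildtype means beside them are near it.

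On day 1, the lines fell on both sides of wildtype. Mstn was 116 beside 52.6 in EMD-/y (log2 ratio 1.14) and 112 beside 54.5 in S54F (1.04). It was 18.5 beside 52.9 in +EMD (-1.51), 18.8 beside 54.6 in Δ95–99 (-1.54), and 9.69 beside 54.8 in Q133H (-2.50). The +EMD mean of this day was 16.5, 18.5, and 34.6 in its 3 tables, and the Q133H mean was 9.69, 9.71, and 15.1, so both ratios depend on the table. Reached through the tables of day 0, the day 1 ratio of EMD-/y was 0.87, and through those of day 2, that of +EMD was -0.82, neither of them 2-fold, and the Mstn value of day 1 is the only one counted for EMD-/y.

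On day 2, Mstn was higher than wildtype in 4 of 5 lines. The means were 953 beside 253 in +EMD (log2 ratio 1.91), 808 beside 240 in S54F (1.75), 567 beside 244 in Δ95–99 (1.22), and 386 beside 222 in EMD-/y (0.80). Only the Q133H mean was lower, at 146 beside 245 (-0.75). In +EMD, the log2 ratio from day 1 to day 2 was 4.95, in the table with the day 1 mean of 34.6, and 0.0639% of all genes lay at least as far apart. In Δ95–99 it was 4.89, with means of 21.7 and 647. Thus +EMD and Δ95–99 went from under wildtype at days 0 and 1 to above it at day 2.

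**Figure D3:**
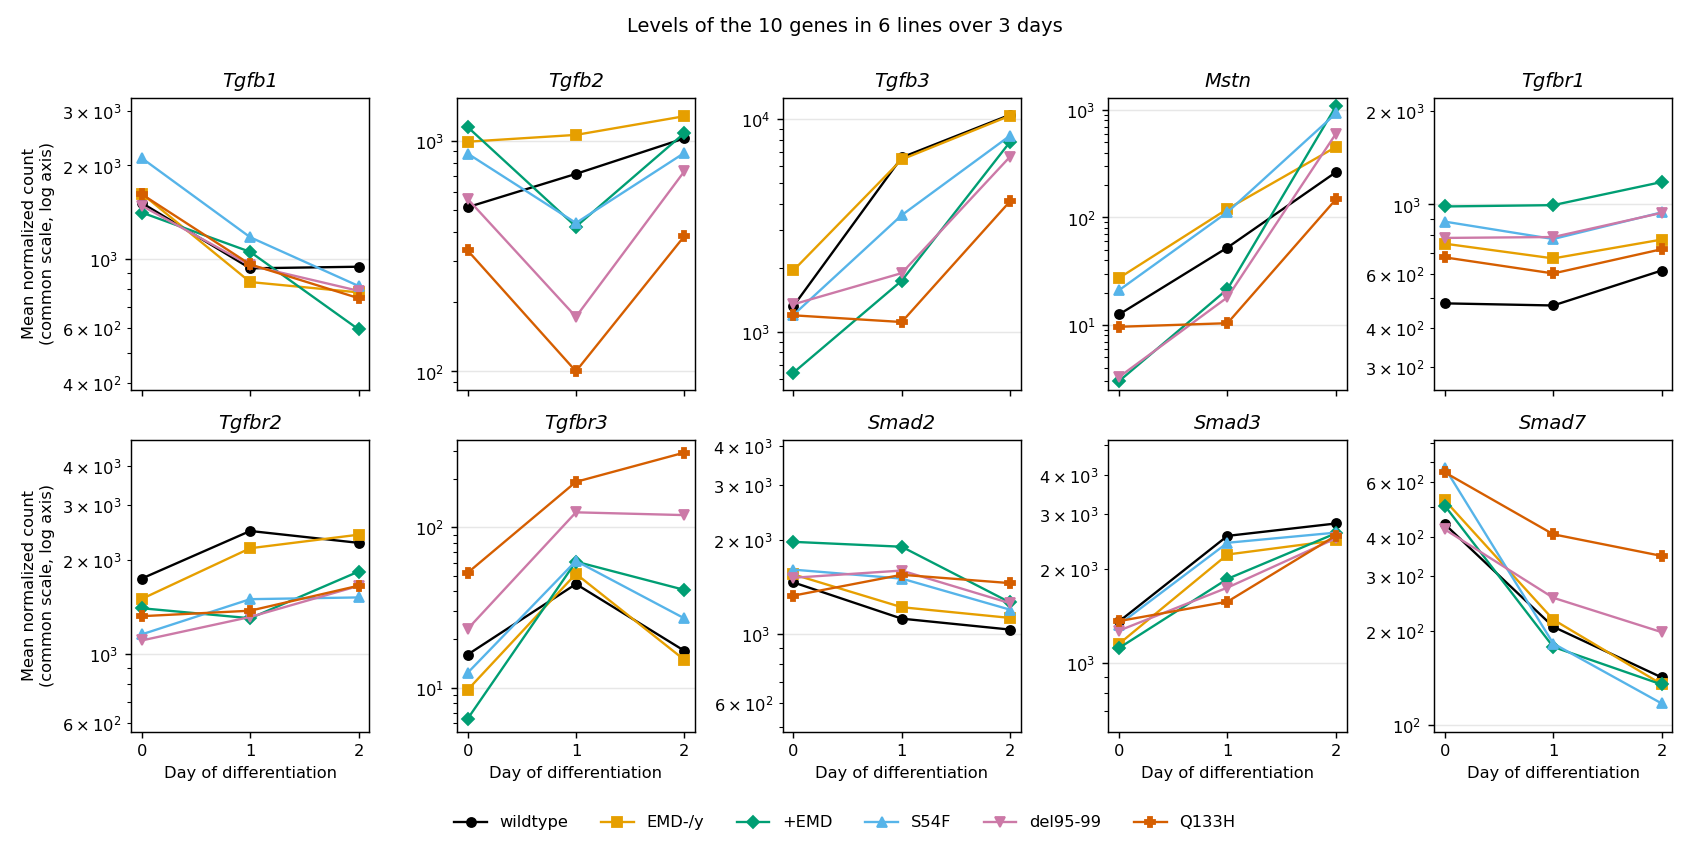
Level of each of the 10 genes (authors' mean normalized count on the common scale, log axis) against day of differentiation, with 1 line of points for each cell line (del95-99 stands for Δ95–99) and no error bars. Tgfb2 is lowest at day 1 in the 4 transduced lines only, Tgfb3 and Mstn are highest at day 2 in every line, and Tgfbr3 at day 2 reaches 292 in Q133H.

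Tgfbr1, the type I receptor, was higher than wildtype in all 15 tables. The log2 ratio ranged from 0.23 in Q133H at day 2, where the means were 698 and 594, to 1.08 in +EMD at day 1, where they were 1027 and 487. The +EMD line had the highest ratio on each day (1.03, 1.08, and 0.94), and EMD-/y had 0.63, 0.50, and 0.33. Between days, Tgfbr1 moved by at most 0.37 on this scale in any line. A difference of the size of the +EMD value at day 1 was held by 16.2% of all genes in that table.

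Tgfbr2, the ligand-binding type II receptor, was lower than wildtype in 14 of 15 tables, none of them by 2-fold. On day 1, its log2 ratio was -0.92 in +EMD and Δ95–99, -0.86 in Q133H, -0.72 in S54F, and -0.18 in EMD-/y. The Δ95–99 mean was 1381 beside 2617 in wildtype. The exception was EMD-/y at day 2, with 2062 beside 1938. From day 0 to day 1, Tgfbr2 was higher by 0.50 in wildtype and 0.53 in EMD-/y, and between 0.11 lower (+EMD) and 0.37 higher (S54F) in the transduced lines.

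Tgfbr3 had the largest difference from wildtype of the 10 genes. In wildtype, its level was 16.1, 44.3, and 17.0 at days 0, 1, and 2, and in EMD-/y 9.69, 51.3, and 14.9. In +EMD it was 6.40, 61.1, and 40.7, and in S54F 12.4, 61.7, and 27.1. The Δ95–99 level was 23.2, 124, and 119, and the Q133H level 52.0, 192, and 292. All 6 lines had more Tgfbr3 at day 1 than at day 0, but in Q133H the day 2 level was higher still and in Δ95–99 it stayed near that of day 1.

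Against wildtype, the log2 ratio of Tgfbr3 in Q133H was 1.55, 2.08, and 4.08 at days 0, 1, and 2. The day 2 means were 284 and 16.8, and 3.63% of all genes in this table lay at least as far apart. In Δ95–99 the ratio was 0.47, 1.47, and 2.74. In +EMD it was -1.34 at day 0, from means of 6.20 and 15.7, and 1.22 at day 2. At day 1, +EMD was 0.47 higher. In EMD-/y the ratio was -0.69, 0.23, and -0.14, and in S54F -0.39, 0.48, and 0.65. Hence Tgfbr3 and Tgfb2, co-receptor and ligand, lay on opposite sides of wildtype at all 3 days in both Q133H and S54F. In S54F, Tgfb2 was above wildtype at day 0 (0.76) and below it at days 1 and 2 (-0.71 and -0.21). The same held for EMD-/y at days 0 and 2, +EMD at days 0 and 1, and Δ95–99 at days 1 and 2, so opposite sides were not particular to Q133H.

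**Figure D4:**
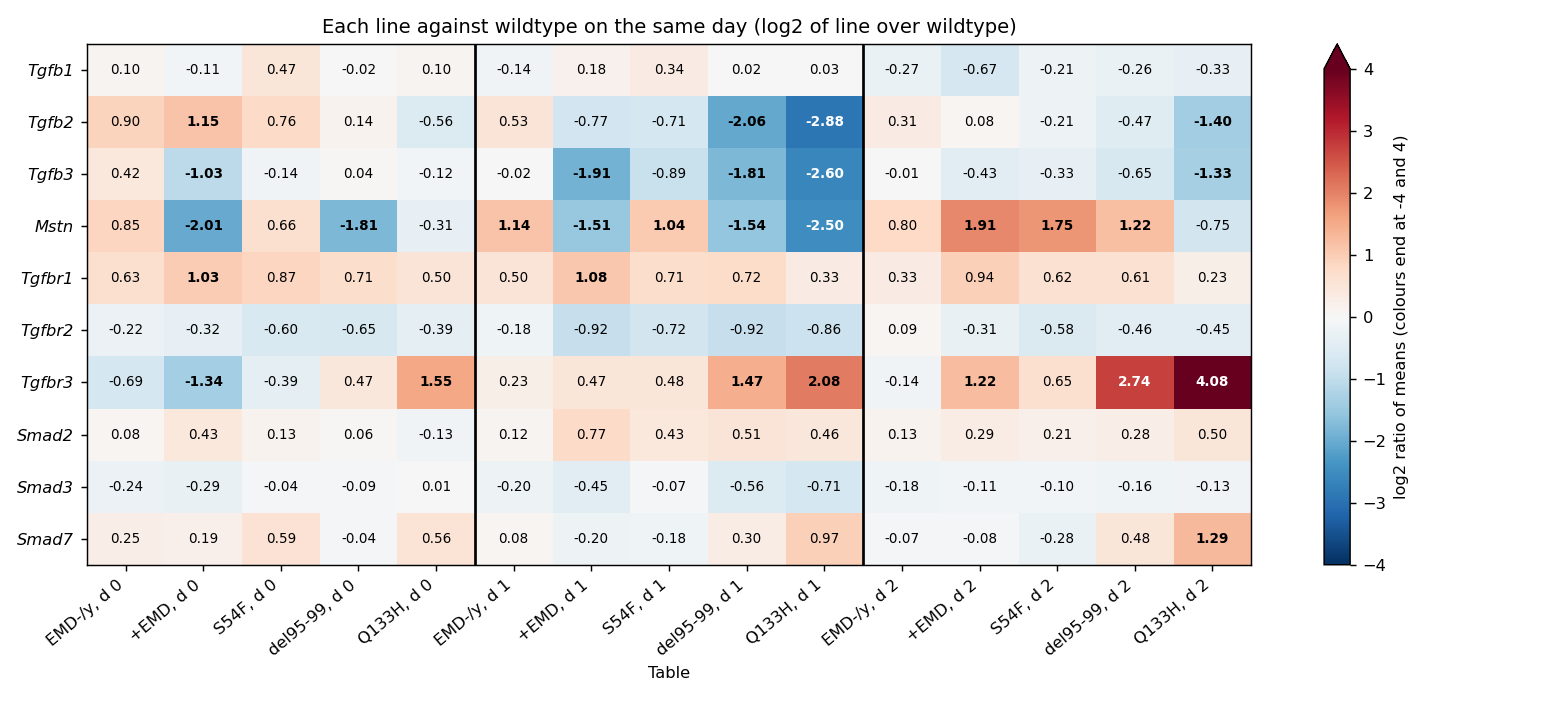
Log2 ratio of each line's mean to the wildtype mean (colour and printed value, bold from 2-fold on) for the 10 genes (rows) in the 15 tables (columns, grouped by day d; del95-99 stands for Δ95–99). Tgfbr1 is above 0 in every column, Tgfb2 and Tgfb3 reach -2.88 and -2.60 in Q133H at day 1, and Tgfbr3 reaches 4.08 in Q133H at day 2.

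The Smads that receive the signal, Smad2 and Smad3, lay within 2-fold of wildtype in all 15 tables. Smad2 had log2 ratios to wildtype from -0.13 (Q133H, day 0) to 0.77 (+EMD, day 1) and was above wildtype in 14 of 15 tables. Smad3 ranged from -0.71 (Q133H, day 1, 1640 beside 2691) to 0.01 (Q133H, day 0). In wildtype, Smad3 was 1361 at day 0 and 2541 at day 1 while Smad2 was 1462 and 1114. Smad3 was higher at the later day in all 12 tables, by 0.11 to 0.95 on the log2 scale. The step from day 0 to day 1 was 0.22 in Q133H and 0.47 in Δ95–99, against 0.90 in wildtype and 0.95 in EMD-/y, and from day 1 to day 2 it was 0.70 and 0.53 against 0.13 and 0.15.

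Smad7, the inhibitory Smad, was lower at the later day in all 12 tables. From day 0 to day 1, its mean went from 439 to 207 in wildtype (log2 ratio -1.08), from 700 to 194 in S54F (-1.85), and from 704 to 451 in Q133H (-0.64). On day 2, Q133H had 338 beside 138 in wildtype (1.29), and Δ95–99 had 187 beside 134 (0.48). The remaining 3 lines were at or slightly below wildtype on that day, between -0.28 (S54F) and -0.07 (EMD-/y). In the Q133H table of day 2, 25.0% of all genes lay at least as far apart.

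**Figure D5:**
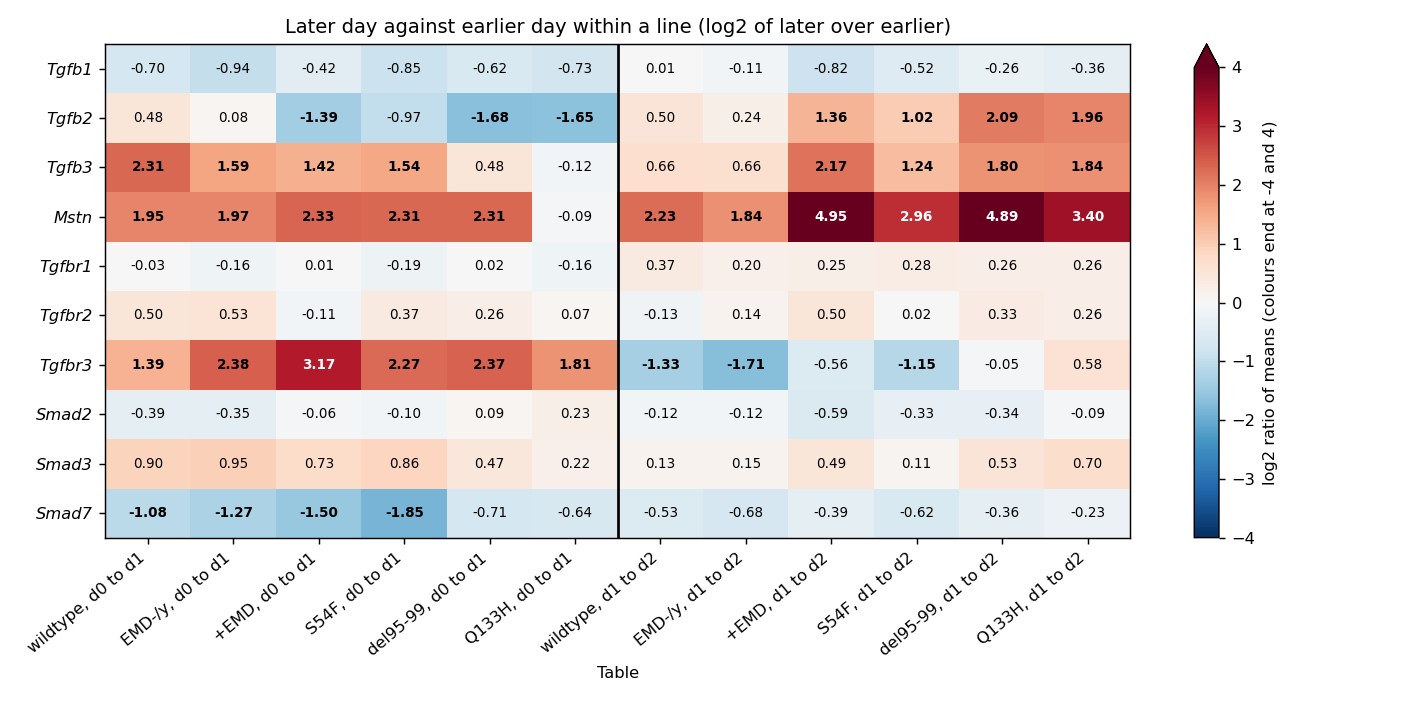
Log2 ratio of the later to the earlier day's mean within a line (colour and printed value, bold from 2-fold on) for the 10 genes (rows) in the 12 tables between days (columns, d, day; del95-99 stands for Δ95–99). Tgfb2 is below 0 from day 0 to day 1 in the 4 transduced lines, Smad7 is below 0 in all columns, and Mstn reaches 4.95 in +EMD from day 1 to day 2.

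The other genes of the pathway were examined as lists of named genes, each read against the 14.9% of all values against wildtype and 16.7% of values between days that were past 2-fold. A gene of low level enters these counts, as it enters the background, only in tables where a mean reached 10, which can favour the group in which it is high. Of 11 extracellular antagonists, 19 values against wildtype were at least 2-fold higher and 44 lower, or 39.9% of 158. Grem1, which binds and blocks BMP ligands, was at least 2-fold higher in 12 of 15 tables, with a median log2 ratio of 1.76 over the 15. Bambi, a decoy receptor that dampens BMP and TGF-beta signals, was above wildtype in all 15 tables and at least 2-fold higher in 4. Follistatin (Fst), which binds and neutralizes activin and myostatin, was at least 2-fold lower in 10 tables, and on day 1 it was 709 in Q133H beside 4049 in wildtype (log2 ratio -2.51). Chordin (Chrd), a BMP antagonist, was at least 2-fold lower in 8 tables. Between days, Fstl1, a follistatin-like secreted protein, was at least 2-fold lower at the later day in 7 of 12 tables. Wfikkn2, which binds myostatin, had a wildtype mean of 12.2 at day 1 and was higher at day 2 by 1.48 on the log2 scale, and on day 2 its mean was 1.67 in Q133H beside 36.0 in wildtype.

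Of the other ligands, 18 of 114 values were higher than wildtype by 2-fold and 22 lower, or 35.1%. Bmp4 was lower in all 15 tables, with log2 ratios from -7.05 to -1.34, and on day 0 its mean was 192 in wildtype beside 16.2 in EMD-/y. Gdf15 was at least 2-fold higher in 6 tables. Bmp2 reached the minimum in wildtype only on day 2, when it was 101 in S54F beside 14.7 in wildtype (log2 ratio 2.78), 47.0 in Δ95–99 (1.65), and 36.5 in Q133H (1.33). Inhba, which encodes the activin A subunit, was lower at the later day in all 12 tables between days. The difference was at least 2-fold in 9 of them. In Q133H, Inhba was 3443 at day 0 and 3253 at day 1, and on day 2 it was 1931 beside 547 in wildtype (log2 ratio 1.82).

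Among the other receptors, 22 of 149 values were higher and 3 lower, or 16.8%, near the background. Acvr2b, a receptor of activin and myostatin, was at least 2-fold higher than wildtype in 8 of 15 tables and above it in all 15, with log2 ratios from 0.20 to 2.71. Acvrl1, a type I receptor of BMP9 and TGF-beta, reached the minimum in wildtype only on day 1, when it was 35.4 in Δ95–99 beside 14.2 in wildtype (log2 ratio 1.32) and between 0.15 and 0.97 above wildtype in the other lines. For the 5 other Smads, 8 of 75 values were 2-fold higher and none lower, or 10.7%, which is below the background. All 8 were values of Smad9, which carries BMP signals. Smad6, the inhibitory Smad of the BMP branch, and Smad9 were both at least 2-fold lower at the later day in 7 of 12 tables. The genes for latency and activation were past 2-fold in 15.7% of values against wildtype, near the background. Ltbp2, a latent TGF-beta binding protein family member, was at least 2-fold higher in 8 tables. Lrrc32, which anchors latent TGF-beta, was at least 2-fold lower in 5 tables. Of the 14 intracellular regulators, 2 of 210 values were higher and 6 lower, or 3.81%, below the background. Pmepa1, which is itself induced by TGF-beta and dampens its signal, made up 5 of the 6, with 1523 in +EMD beside 5119.95 in wildtype on day 1 (log2 ratio -1.75).

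Of 29 genes known to be induced by TGF-beta, 63 values against wildtype were higher by 2-fold and 65 lower, or 29.7% of 431. On day 1, 12 were lower and 2 higher in +EMD (median log2 ratio -0.71), 10 lower and 3 higher in Δ95–99 (-0.66), 8 lower and 4 higher in Q133H (-0.08), and 6 lower and 1 higher in S54F (-0.30). In EMD-/y, 5 were higher and none lower (0.09). At day 2, 11 were higher and 6 lower in Q133H (0.74). Id2, which is better known as a BMP target and inhibitor of differentiation, was above wildtype in all 15 tables. The difference was at least 2-fold in 12 of them. Col1a1, type I collagen, was at least 2-fold lower in 10 tables and 2-fold higher in 1. On day 1, Col1a1 was 937 in Q133H beside 9417 in wildtype, and 19131 in EMD-/y beside 10088. Col1a1 is also 1 of the 9 fibroblast markers, of which 31 of 89 values against wildtype were 2-fold lower and 7 higher (42.7%). The median log2 ratio of these markers was -1.93 in +EMD and -1.98 in Q133H at day 0, and -1.49 in Q133H at day 1, and their part in the Col1a1 values was not tested.

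Likeness over the 18 groups was taken among 11097 genes at a level of at least 10 in every group. The levels of Tgfb3 were most like those of Myl6b, a myosin light chain (Pearson's r of log2 levels 0.98), Rab40b (0.98), and Dlgap4 (0.97). Those of Mstn were most like Hdac9, a target of the muscle factor Mef2 (0.97), Pgam2, the muscle phosphoglycerate mutase (0.96), and Fibin (0.96). Among the genes most like Tgfb2 were Chd7 (0.90) and Atcay (0.88), and Tgfb1 was most like Pwwp2b, Nsmf, and Med16, with r between 0.93 and 0.94. Within the 10 genes, r was 0.92 between Tgfb3 and Mstn, 0.91 between Tgfb3 and Smad3, and -0.87 between Smad3 and Smad7. The groups share lines, days, and tables, so these are descriptions of 18 points that are not independent.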

How the data were processed

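RNA from 54 samples in 18 groups was analysed. According to the labels and the study's methods, poly-A RNA was sequenced as 100 bp read pairs, and the sequencing provider filtered reads with SOAPnuke, mapped them with HISAT2 to mm10, and compared groups for the authors with DESeq2. The submitters' processing notes list the same names for the authors' steps. Versions are not given in the sources used here. The signal values deposited by the authors are means of normalized counts per group. Values for single samples fill 0 columns, so the depth of a sample is unknown. The deposited fold changes, p-values, q-values, and direction calls are the authors' own comparisons and were not used.

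From the means, the log2 ratio of the second to the first group was computed within each table, with no pseudocount. A gene counted at 2-fold or more with a higher mean of at least 10, read against all genes with an NCBI gene number. Between 8.52% and 8.92% of features per table had no such number. For levels, 1 offset per table was set from medians over genes, and the geometric mean over tables was taken. Levels were compared between genes only per kb. The scripts were tested on simulated data. RefSeq supplied positions and promoters, and 6 of the 10 genes had a promoter entry. The 10 genes and the pathway lists were chosen with earlier results of these data known. From each list, at most 2 genes per direction were named, those past 2-fold in the most tables, with ties settled by the larger median size. For the ligands, the 3 genes most alike over the groups were named. Other genes were named as checks. A member of the antagonist list and 1 gene among those most like Tgfb2 are not reported here, and the list was counted without that member. Alternatives were folds of 1.5 and 3, no minimum, a minimum of 50, a pseudocount of 1, median centring, division by the column sum, and the path through another day. The design text states 3 technical replicates per biological replicate, with 2 biological replicates. Which kind each of the 3 labelled replicates of a group is was not stated. Python 3.11.15, numpy 2.4.6, pandas 2.3.3, and matplotlib 3.10.9 were used.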

Additional observations from a re-analysis of the deposited data

How the results depend on the processing

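No replicate could be left out, and no paired analysis was possible because the tables hold means per group and no value per replicate. Lowering the threshold to 1.5-fold took the counts over the 5 lines from 7 to 18 at day 0, from 13 to 25 at day 1, and from 9 to 17 at day 2, and the count over the 6 lines from 22 to 34 between days 0 and 1. Raising it to 3-fold left 2, 7, and 4 values against wildtype at days 0, 1, and 2. A minimum level of 50 left 4 values at day 0. The other settings kept all 5 counts within 1.5 times. Of 270 single values, 68 were past 2-fold, and all 68 stayed past it with a pseudocount of 1 or median centring. With division by the column sum, 66 stayed and 2 more passed it, and Tgfb2 and Tgfb3 in S54F from day 1 to day 2 came to 0.75 and 0.97. Reached through another day, a value of day 1 had 2 paths and a value of day 0 or 2 had 1. The paths use means of the same groups, so they compare the tables with each other and not the replicates. A further 3 paths passed 2-fold for values that did not. Of 42 paths to a value past 2-fold against wildtype, 40 stayed past it, and no past value changed sign in these settings. The exceptions were Mstn on day 1 in EMD-/y (0.87) and in +EMD (-0.82), and the largest shift was 0.70, for Mstn.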

Other observations

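The same group has different means in different tables for a few genes, beyond 1 scaling factor per table. After the offsets were removed, between 0.0243% and 0.655% of genes at the minimum level had means over 1.5-fold apart between the tables of a group. Among the 10 genes, this held for Mstn on day 1 in +EMD (2.22-fold) and Q133H (1.54-fold). The cause was not tested.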
